A study of Mus musculus with 3 samples.

Results

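The genes described here are Olig1, Olig2, Sox10, Nkx2-2, Cspg4, Lhfpl3, Gpr17 and Bcas1, which mark oligodendrocyte precursors and the committed precursors that follow them. They are 8 of the 22180 genes that have a probe set of their own on the array, and 9 of its 41345 probe sets carry one of these symbols alone. The genes were chosen by their symbols as lineage markers while their log2 signal in all 3 cultures was already known, so their levels are given as a description with no test. Gene expression was measured with a 1-colour Affymetrix array in 3 replicate cultures, 1 array each, and all 3 form a single group with no comparison group. The donors were wild-type (WT) CD-1 mouse embryos at embryonic day 13, and the tissue was the medial ganglionic eminence (MGE), the part of the ventral forebrain where many cortical interneurons arise. Plating density was 59000 cells/cm2, and the medium held 40 ng/ml FGF2. B27 was used at 2%, and 3 medium changes were made at intervals of 2 h. The cultures received 1 µM AraC, which kills cells during DNA synthesis, for 24 h from day 5, and RNA was taken after 2 further days without it. The labels call the result purified MGE interneurons.

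Oligodendrocytes are the cells that wrap axons in myelin. In the ventral forebrain they arise from progenitors that also give interneurons, and Olig2 is known from dividing MGE progenitors as well as from the oligodendrocyte lineage. Precursors divide in response to PDGF through the receptor Pdgfra, then commit, leave the cell cycle and switch on genes such as Gpr17, Bcas1, Enpp6 and Myrf before the myelin genes.

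Signal was compared with that of 1435 probe sets of smell, pheromone and bitter taste receptor genes (Olfr, Vmn1r, Vmn2r and Tas2r), whose receptors work in sensory cells of the nose and tongue. The 95th percentile of their means, 6.26 on the log2 scale, is called the background threshold. Each of the 8 genes lay above this threshold in every culture, as did 64.5% of the 20755 genes set against it, and 7 of the 8 lay above it by 1 log2 unit in every culture, against 48.8% of all genes. The exception was Bcas1, whose lowest culture was at 7.25 against a line of 7.26. The median of the 8 gene means was 9.22, beside 7.34 over all genes. Since the genes were picked with these values in view, the counts are not evidence that the group stands out. Each array measured a whole culture, so fewer cells of a type and less RNA per cell cannot be told apart.

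**Figure D1:**
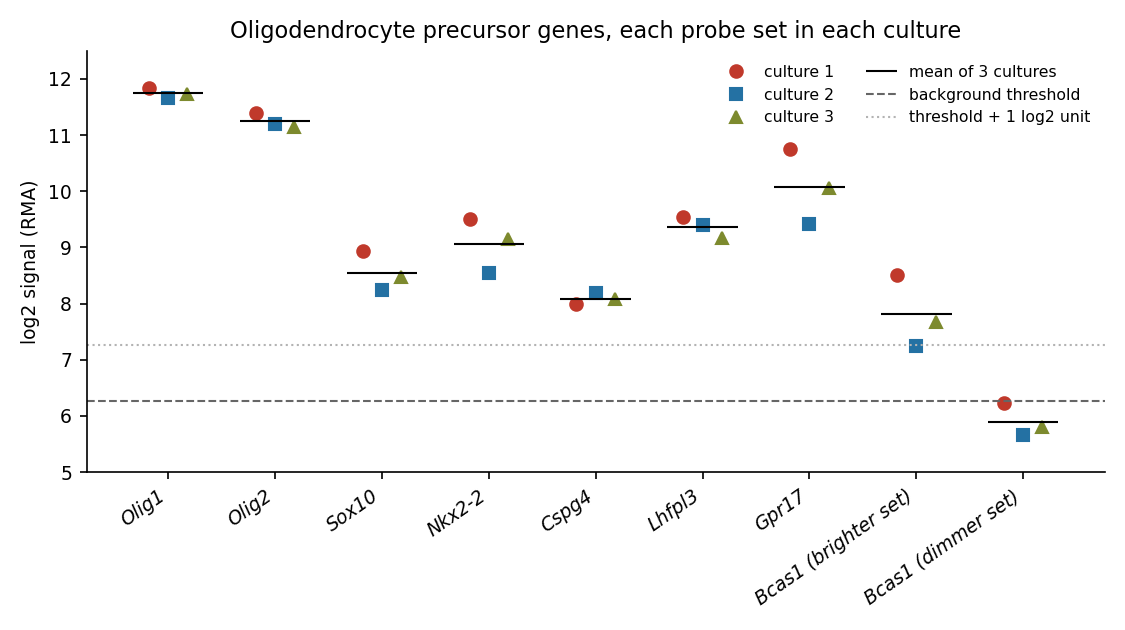
Log2 signal of the 9 probe sets of the 8 genes (vertical axis) in each of the 3 cultures (points), with the mean as a bar; the dashed line is the background threshold of 6.26 and the dotted line lies 1 unit above it. Gpr17, Bcas1, Nkx2-2 and Sox10 spread widely with culture 1 at the top, whereas Olig1, Olig2 and Cspg4 stay close together.

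Among the transcription factors, Olig1 and Olig2 varied least. Olig1, a basic helix-loop-helix factor needed for oligodendrocyte maturation, had log2 signals of 11.84, 11.66 and 11.73 in cultures 1, 2 and 3 (mean 11.74 ± 0.09, SD, n = 3). Olig2, the related factor that specifies the lineage, had 11.39, 11.20 and 11.14 (mean 11.24 ± 0.13). Culture 1 was the highest for both, by 0.18 and 0.24 over the lowest culture, and 65.7% and 49.6% of all genes had a larger SD. The 2 profiles were the closest of the 28 pairs from the 8 genes, with a root mean square difference between their deviations of 0.0585 log2 units. This measure is not scaled by spread, so genes that vary little lie close together whatever their order of cultures. The lowest culture was culture 2 for Olig1 and culture 3 for Olig2.

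Sox10 and Nkx2-2 varied more. Sox10, a high-mobility-group factor that drives myelin genes, had 8.94, 8.23 and 8.47 (mean 8.55 ± 0.36). Nkx2-2, a homeodomain factor that promotes the step from precursor to oligodendrocyte, had 9.50, 8.54 and 9.15 (mean 9.06 ± 0.49). In each of them culture 1 was highest and culture 2 lowest. The distance between these cultures was 0.71 for Sox10, a 1.63-fold ratio, and 0.96 for Nkx2-2, a 1.95-fold ratio. An SD as large was uncommon: 5.40% of all genes had a larger one than Sox10 and 1.71% a larger one than Nkx2-2.

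The promoter windows of Olig2 and Nkx2-2 are printed because both are lineage factors of this set that differ in spread over the cultures. The SD of Olig2, 0.128, was near the median of 0.127 over all genes, while that of Nkx2-2 was wide. They are not the widest contrast among the factors, since Olig1 varied less than Olig2. Each is the 250 bases before the gene start, 5′ to 3′ on the gene's strand, from RefSeq on GRCm38.p6. Capitals mark matches, on either strand, to the E-box CANNTG bound by basic helix-loop-helix factors, to the Sox motifs ACAAAG and ACAATG, and to the Nkx2 motif TNAAGTG.
Olig2, chr16:91225300-91225549, plus strand: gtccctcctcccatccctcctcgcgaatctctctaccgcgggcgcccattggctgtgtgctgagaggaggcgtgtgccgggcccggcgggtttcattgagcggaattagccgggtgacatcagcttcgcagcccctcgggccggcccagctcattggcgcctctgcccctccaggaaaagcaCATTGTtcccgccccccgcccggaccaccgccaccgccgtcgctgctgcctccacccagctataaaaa
Nkx2-2, chr2:147186403-147186652, minus strand: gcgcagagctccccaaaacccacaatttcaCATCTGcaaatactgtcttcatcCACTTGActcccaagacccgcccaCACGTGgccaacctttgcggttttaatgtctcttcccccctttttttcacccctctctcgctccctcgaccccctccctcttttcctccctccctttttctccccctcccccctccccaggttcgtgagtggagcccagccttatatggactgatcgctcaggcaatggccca
The Olig2 window held 1 match to ACAATG, printed as its reverse complement, and 0 E-boxes. The Nkx2-2 window held 3 E-boxes and 1 match to TNAAGTG, which overlaps the E-box in the middle. Of 32851 promoter windows of the same length, 66.2% held CANNTG, 16.5% ACAAAG, 10.7% ACAATG and 10.1% TNAAGTG. In the windows of the other members used here, Lhfpl3 had 2 E-boxes and Cspg4 had 0 matches to any of these motifs. No window of Olig1, Sox10, Gpr17 or Bcas1 was used. These are letter matches and not shown to be bound.

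Transcripts of Cspg4 and Lhfpl3, 2 membrane proteins of precursors, spread less than those of Sox10 and Nkx2-2. Cspg4, the NG2 proteoglycan, which is found on oligodendrocyte precursors and on pericytes, had 7.998, 8.19 and 8.08 (mean 8.09 ± 0.09). It was the sole member of the 8 that was highest in culture 2 and lowest in culture 1, with 0.19 between them. Lhfpl3, a tetraspan membrane protein used as a precursor marker, had 9.55, 9.39 and 9.16 (mean 9.37 ± 0.20), so that culture 3 was lowest. Its span was 0.39, and 26.6% of all genes had a larger SD.

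The committed-stage genes spread furthest. Gpr17, a G protein-coupled receptor present for a short time in committed precursors, had 10.75, 9.42 and 10.06 (mean 10.08 ± 0.66). Gpr17 lies inside the span of Lims2 in the RefSeq gene table, and the probe set used here names Gpr17 alone. Bcas1, a protein of early myelin-forming oligodendrocytes, had 8.51, 7.25 and 7.68 on its brighter probe set (mean 7.81 ± 0.64). Culture 1 exceeded culture 2 by 1.32 for Gpr17 and by 1.26 for Bcas1, which are 2.50-fold and 2.40-fold ratios. These were the 2 members whose cultures spanned over 1 log2 unit, as 1.29% of all genes did. Their profiles differed by 0.0869 log2 units, the third closest of the 28 pairs after Olig1 with Olig2 and Olig2 with Lhfpl3 (0.0787).

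The 2 probe sets of Bcas1 disagreed in level. The dimmer one had 6.24, 5.65 and 5.81 (mean 5.90 ± 0.30), below the threshold in each culture, while its order of cultures was that of the brighter one. With the mean of both probe sets Bcas1 averaged 6.86 and 1 member, Gpr17, spanned over 1 log2 unit. A further probe set names Nkx2-2 together with Nkx2-2os, its antisense transcript, and had 6.15, 6.05 and 6.05, below the threshold.

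In all, 5 of the 8 genes were highest in culture 1 and lowest in culture 2 (Olig1, Sox10, Nkx2-2, Gpr17 and Bcas1), an order that 19.7% of all genes had. Culture 1 exceeded culture 2 in 7 of 8, against 44.8% of all genes. The median difference was 0.45 over the 8 genes and -0.02 over all genes. With 1 array per culture no difference between cultures can be tested.

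**Figure D2:**
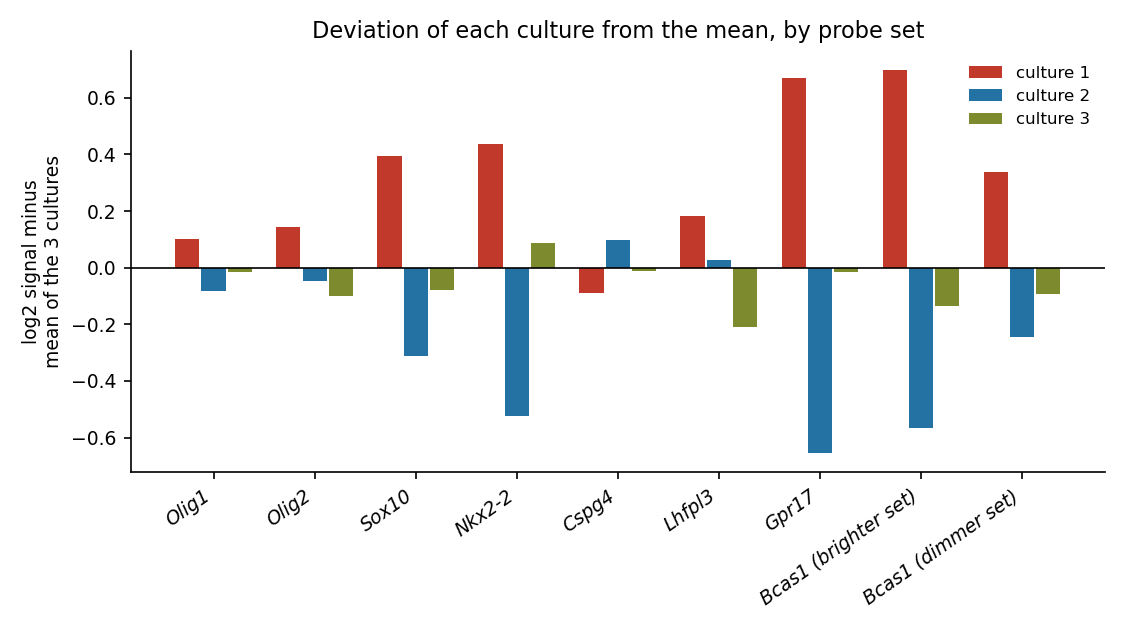
Deviation of each culture from the 3-culture mean on the log2 scale (vertical axis), for each probe set of the 8 genes. The bars of culture 1 reach 0.67 for Gpr17 and 0.70 for the brighter Bcas1 set, those of culture 2 reach -0.65 and -0.56, and Cspg4 runs the other way at -0.09 and 0.10.

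For the members with an SD over 0.3, the genes above background with the most similar deviations over the 3 cultures were sought. Bcas1 was closest to Myrf, the transcription factor that switches on myelin genes, with a root mean square difference of 0.033 log2 units, then to P4ha3 (0.0631) and Acsf2 (0.0688). Nkx2-2 was closest to Hes5, a Notch target (0.00755), Mir703 (0.00769) and Plpp2 (0.0117). Gpr17 was closest to Itga2 (0.0152), Gm6981 (0.018) and Parvb (0.0394), and Sox10 to Slc13a3 (0.0132), Gsta4 (0.0133) and Cd63 (0.017). Over 3 cultures such likeness is easily met. Of 13151 genes, 222 lay within 0.1 of Sox10, 68 within 0.1 of Nkx2-2, 12 within 0.1 of Gpr17 and 9 within 0.1 of Bcas1.

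Other genes of the lineage were taken from lists and tested with limma against the threshold, one-sided, with Benjamini-Hochberg adjustment over all probe sets tested; 63.4% of all genes passed at an adjusted p of 0.05, and 47.6% when the line was set 1 log2 unit higher. Of 20 other precursor genes 17 passed, 15 of them with that margin. Whether their signal came from precursors or from other cells of the culture was not tested. Pdgfra, the PDGF receptor, had 11.51, 11.42 and 11.42 (mean 11.45 ± 0.06, limma adjusted p = 1.37e-06). C1ql1, a secreted C1q-like protein, averaged 8.60 ± 0.38 (adjusted p = 0.000117). The 3 that did not pass were Matn4 (6.73 ± 0.47, adjusted p = 0.0589), an extracellular matrix protein, Susd5 (5.85 ± 0.06) and Tmem100 (6.24 ± 0.20). The median mean of the list was 9.88. Gpr37l1, at an adjusted p of 0.0479, lost its call with any one culture left out, and Matn4 passed without culture 1 and after either renormalization.

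Genes of the committed stage that are not among the 8 passed in 13 of 14 measured cases, 10 of them with the margin. Bmp4, a growth factor, had 9.04, 6.55 and 7.89 (mean 7.83 ± 1.25, adjusted p = 0.0279). Tcf7l2, a Wnt pathway transcription factor of newly forming oligodendrocytes, had 9.62, 8.87 and 8.999 (mean 9.16 ± 0.40, adjusted p = 6.17e-05). Itpr2, a calcium release channel, averaged 8.42 ± 0.44 (adjusted p = 0.000246). Enpp6, an ectoenzyme of newly forming oligodendrocytes, was the one that did not pass, with 7.75, 6.09 and 7.26 (mean 7.03 ± 0.85, adjusted p = 0.0685). It passed without culture 2, the culture in which it lay below the threshold. Bmp4 lost its call without culture 1 or without culture 3, and Neu4, a sialidase, without culture 3. In 12 of the 14 genes culture 1 was highest and culture 2 lowest, against 19.7% of all genes. This order was a measure added after seeing the data.

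Of 14 measured myelin genes 8 passed, 5 with the margin, and the median mean was 7.13. Mbp, the myelin basic protein, had 8.68, 7.91 and 7.97 (mean 8.19 ± 0.43, adjusted p = 0.000352). Mag, an adhesion protein of the inner myelin membrane, had 9.45, 8.02 and 8.31 (mean 8.59 ± 0.75, adjusted p = 0.00128). Mobp, a further myelin protein, averaged 7.39 ± 0.72 (adjusted p = 0.0140) and lost its call without culture 3. Mog, on the outer surface of mature myelin, averaged 6.87 ± 0.03 (adjusted p = 0.000224) and did not pass with the margin. Those that did not pass were Mal, Opalin, Ermn, Aspa, Klk6 and Ppp1r14a, named after their values were seen, with means between 4.86 and 6.54. The order with culture 1 highest and culture 2 lowest was counted in 12 of 14, against 19.7% of all genes. That count includes Klk6, whose signals in cultures 2 and 3 were equal at 6.26. It also includes Mal, Ermn and Aspa, which like Klk6 did not pass. The same order held in 12 of 14 committed-stage genes and in 7 of the 20 other precursor genes.

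The distance between cultures 1 and 2 was small in some lists and large in others. Its median was 0.09 over the other precursor genes, 0.59 over the other committed-stage genes and 0.63 over the myelin genes, beside -0.02 over all genes. The lists overlapped, since the distance reached 0.78 among other precursor genes and was as low as -0.51 among other committed-stage genes. Culture 1 exceeded culture 2 in 15 of the 20 other precursor genes, whereas Nxph1 of that list had 11.16, 11.74 and 11.48. The part of other cells of the culture in the signal of these lists was not tested. Within the 8 genes the same distance was -0.19 for Cspg4, 0.15 for Lhfpl3, 0.18 for Olig1 and 0.19 for Olig2. It was 0.71 for Sox10, 0.96 for Nkx2-2, 1.26 for Bcas1 and 1.32 for Gpr17. These are differences between single arrays, and none of the 8 is in the other lists.

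**Figure D3:**
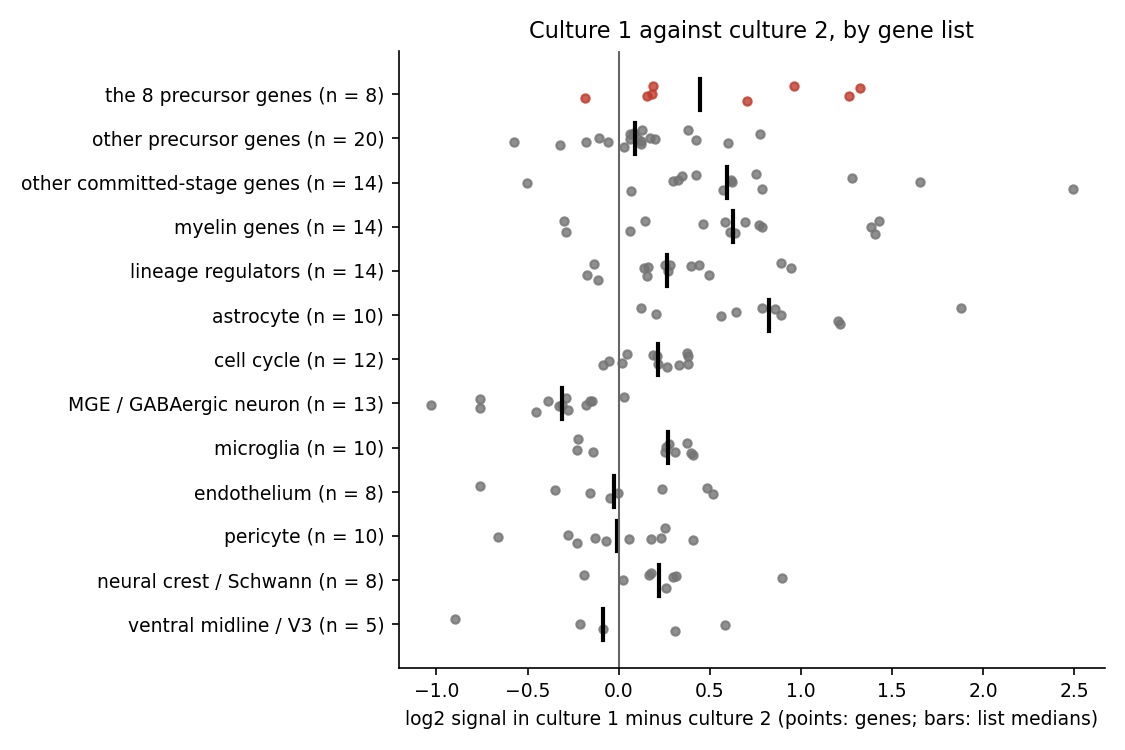
Log2 signal in culture 1 minus culture 2 (horizontal axis) for each gene (points) of the 8 precursor genes and 12 other lists, with list medians as bars. The medians are 0.45 for the 8 genes, 0.09 for other precursor genes, 0.59 for other committed-stage genes, 0.63 for myelin genes, 0.82 for astrocyte markers and -0.31 for MGE and GABAergic neuron genes.

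Astrocyte markers mostly had culture 1 highest and culture 2 lowest. All 10 were highest in culture 1, as 33.2% of all genes were. In 8 of them culture 2 was also lowest, an order that 19.7% of all genes had. The 10 markers had a median difference of 0.82 between those cultures. Their mean log2 level was 9.13, 8.29 and 8.80 in cultures 1, 2 and 3, and 8 of 10 passed the test, S100b (6.55 ± 0.33), which passed without culture 2, and Gjb6 (5.23 ± 0.08) being those that did not. Gfap, the intermediate filament of astrocytes, had 8.51, 6.64 and 8.08 (adjusted p = 0.0158), and Aqp4, their water channel, had 8.74, 7.53 and 8.34 (adjusted p = 0.00120). Gfap lost its call without culture 1 and without culture 3, and its distance between cultures 1 and 2 was the largest of the 10. The MGE and GABAergic neuron list went the opposite way, with a mean level of 10.63, 11.02 and 10.92. Of its 13 measured genes 9 were highest in culture 2, as 44.3% of all genes were, and all 13 passed with the margin. Gad1, which makes GABA, had 9.64, 10.67 and 10.37, the largest distance between cultures 1 and 2 in this list. The list's median for culture 1 minus culture 2 was -0.31. Cell cycle genes (12 of 12 passed) had a mean level of 9.74, 9.55 and 9.54. The part of these cells in the spread of the 8 genes was not tested.

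Regulators known to act with or against the 8 genes were mostly above background, with 13 of 14 measured passing, each of the 13 also with the margin. Sox8 (9.84 ± 0.23, adjusted p = 5.9e-06) and Sox9 (11.48 ± 0.15, adjusted p = 1.42e-06), the closest relatives of Sox10, and Chd7 (9.29 ± 0.20, adjusted p = 7.55e-06), a chromatin remodeller that works with Sox10, were among them. Nkx6-1 (6.01 ± 0.07), a ventral patterning factor, was not. Hes5 and Id4, which hold back oligodendrocyte differentiation, had 10.27, 9.32 and 9.92 and 8.74, 7.85 and 8.19, and are named here for their values. In 9 of the 14 genes culture 1 was highest and culture 2 lowest, against 19.7% of all genes. That count includes Sox9, whose signals in cultures 2 and 3 were equal at 11.39.

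Among paralogs or close relatives of the 8 genes, 8 of 17 measured passed, 5 with the margin. Olig3 (5.24 ± 0.19), the third Olig factor, Nkx2-3 (5.70 ± 0.06), Lhfpl1 (5.95 ± 0.02) and Lhfpl5 (6.23 ± 0.13) did not pass, and neither did Cysltr1 (4.95 ± 0.05) and Cysltr2 (5.29 ± 0.23), the leukotriene receptors related to Gpr17. Nkx2-1 (9.16 ± 0.16), the MGE fate factor, Lhfpl4 (9.07 ± 0.18), a protein of inhibitory synapses, and Lhfp (9.74 ± 0.10) passed with adjusted p values of 5.07e-06, 6.97e-06 and 1.85e-06. Apart from Olig3, Sox8 and Sox9, the relatives named here were chosen after their values were seen.

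Cspg4, Sox10 and Nkx2-2 are also known from other cells, and markers of those cells were set against the same threshold. Olig2 is also known from dividing MGE progenitors. The MGE and GABAergic neuron list and the cell cycle list lay above background, with all 13 and all 12 measured genes passing. Cspg4 marks pericytes, and of 10 pericyte and smooth muscle markers 4 passed (Pdgfrb, Rgs5, Acta2 and Myh11). Acta2, smooth muscle actin, passed with the margin, at 9.93, 9.87 and 8.38. Kcnj8, Abcc9, Anpep, Des, Vtn and Higd1b, of which the last 4 are named to complete the count, did not pass, and Rgs5 lost its call without culture 2 or without culture 3. The mean level of the list was 6.60, 6.63 and 6.59. Sox10 marks neural crest, Schwann and pigment cells, and of 8 measured markers of these, Foxd3, Egr2, Dct, Mlana and Erbb3 passed, Pmp2, Cdh19 and Tyr did not, and 0 passed with the margin. That count of 5 was 3 without culture 1 and 2 without culture 3, and the mean level was 6.18, 5.94 and 6.04. Nkx2-2 marks the ventral midline domain, where Nkx2-9 (6.51 ± 0.09) and Foxa2 (6.59 ± 0.16) passed, and Sim1 (6.34 ± 0.36), Shh (5.74 ± 0.12) and Slc17a6 (6.40 ± 0.53) did not. Without culture 3, 0 of these 5 passed, and without culture 2 Sim1 passed and Nkx2-9 did not. Microglial and endothelial markers were counted too, although none of the 8 genes is named here for those cells. Of these markers 5 of 10 and 5 of 8 passed, 0 of either with the margin. Without culture 3 the microglial count was 2, and without culture 1 the endothelial count was 3. The part of any of these cells in the signal of the 8 genes was not tested.

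**Figure D4:**
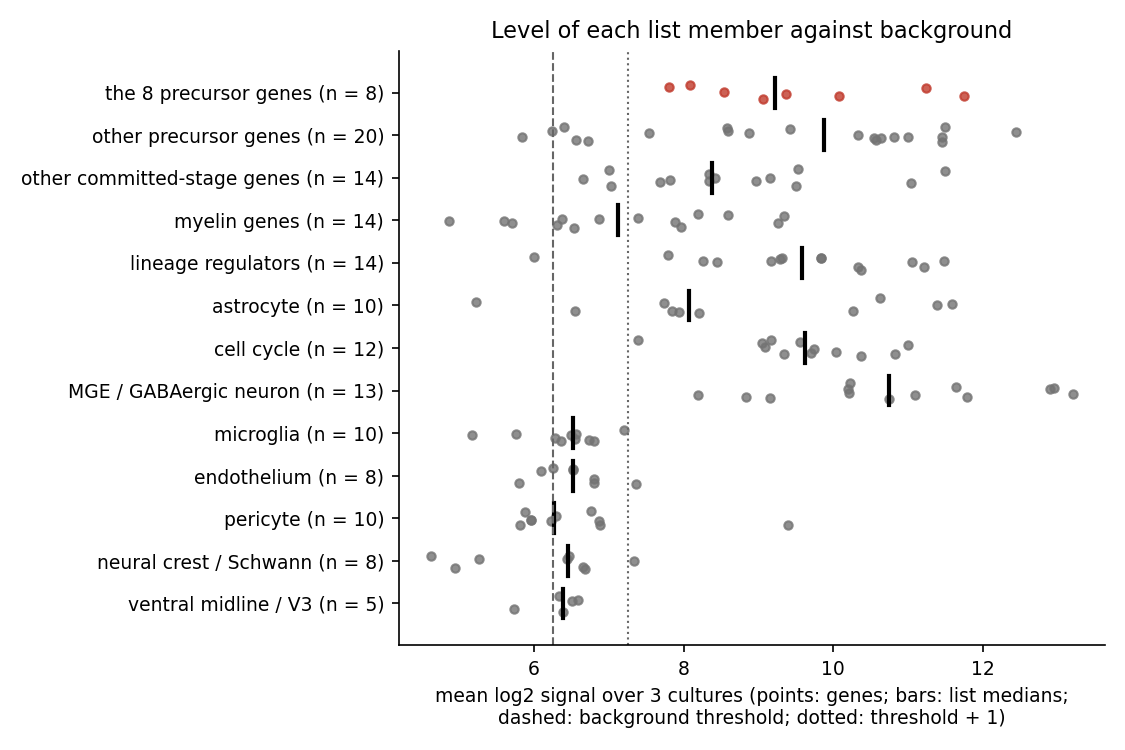
Mean log2 signal over 3 cultures (horizontal axis) of each gene (points) by list, with list medians as bars, the background threshold of 6.26 dashed and the line 1 unit above it dotted. The 8 precursor genes all lie beyond the dotted line in the mean, with a median of 9.22. The lists of microglia, endothelium, pericytes, neural crest and ventral midline centre near the dashed line. The medians of the MGE and GABAergic neuron list and the cell cycle list are 10.74 and 9.63.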

How the data were processed

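The authors deposited a table of log2 signals with 1 column for each of the 3 cultures. The submitters' processing notes name oligo and RMA, a method of background correction, quantile normalization and probe summary. Versions, settings and the genome build were not given in the sources used here. The deposited log2 values lay between 2.07 and 13.92, with medians of 6.57, 6.52 and 6.56. Between cultures, across probe sets, Pearson's r was 0.983 (1 and 2), 0.991 (1 and 3) and 0.986 (2 and 3). Arrays give no read depth, and their number limits the precision. Symbols came from the platform's probe table: 23521 probe sets carry 1 symbol and were used, 1814 carry several and 16010 none. For a gene with several probe sets, the one with the highest mean is printed, and a call on any counts.

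limma 3.58.1 in R 4.3.3 tested, in 22086 probe sets that are not control receptors, whether the mean exceeded the threshold (intercept, one-sided, moderated with 2.13 prior degrees of freedom). The test was checked on simulated data. Replicates are called biological in the labels. Members, lists and tests were chosen with earlier results of these data known. Genes named from each list were taken from the first 4 measured and those on the smaller side of the call where 5 or fewer; others are named after their values were seen, to complete a count or because leaving out 1 culture changed their call. The order of cultures and the distance between cultures 1 and 2 were measures added after seeing the data. Where cultures had equal signals, the lower-numbered one was counted as highest or lowest.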

Additional observations from a re-analysis of the deposited data

Results flagged for a closer look

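A probe set outside the measurements above names Gpr17 together with Lims2, whose span in the RefSeq gene table takes in all of Gpr17, and so was not used for either gene. Its log2 signal averaged 8.19 ± 0.20 (SD, n = 3), above the background threshold of 6.26. It had 8.36, 7.97 and 8.23 in cultures 1, 2 and 3, the same order as the Gpr17 probe set with a smaller spread.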

How the results depend on the processing

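The count of 8 members above the threshold in every culture was the same at the 99th (7.10) and 90th (5.82) percentile, after quantile normalization or median centring, with the mean of probe sets, without dim probe sets, with an intensity trend, and without any one culture. With the margin it was between 6 and 8, and without any one culture 7 to 8. At the 99th percentile 5 myelin genes passed, as did 5 paralogs, 1 pericyte, 1 endothelial, 0 microglial, 0 neural crest and 0 ventral midline genes. At the 90th percentile 8 microglial and 4 ventral midline genes did. Without one culture the ranges were 16 to 17 for other precursor genes, 11 to 14 for committed-stage genes, 7 to 8 for myelin genes and 12607 to 12935 for all genes. With the mean of probe sets 1 member spanned over 1 log2 unit, and after quantile normalization 3 did. The paralogs' median distance between cultures 1 and 2, 0.03, was -0.047 after quantile normalization and -0.025 after median centring; the cause was not tested. Median centring moved that distance over all genes to -0.08. Enpp6, Mal, Matn4 and S100b passed after both normalizations, and Gpr37l1 did not after median centring or with the intensity trend. The order of cultures in 5 of 8 members held under both normalizations and with the mean of probe sets. No paired analysis was possible because the 3 cultures form 1 group. Signal close to the threshold limits the call of Gpr37l1 (6.41 ± 0.07), and the spread over cultures is wide for Enpp6 (SD 0.85) and Matn4 (0.47).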
